A study of Mus musculus with 6 samples.

Results

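The genes described here are those for which the cells expressing an exogenous cryptochrome lay on 1 side of the cells without any. The CPN-/-CRY1 and CPN-/-CRY2 lines, with 4 libraries in all, formed 1 group and the 2 CPN-/- libraries the other, and a gene was a member when all 4 libraries of the first group lay below, or all 4 lay above, both libraries of the second. Genes on chromosomes 3, 15, 16 and 19 were left out by the same rule. On these 4, the median log2 fold change of the CPN-/-CRY1 line against CPN-/- was −0.28, −0.36, 0.27 and 0.31, and that of the CPN-/-CRY2 line was 0.11, 0.05, −0.09 and −0.17. Of 27179 genes in the count tables, 14069 were expressed highly enough to be tested, and 11279 of these had a known position outside the 4 chromosomes. Members numbered 3972, of which 1929 (17.1% of the 11279 genes) were lower and 2043 (18.1%) were higher in all 4 CRY-expressing libraries. These numbers describe an order among 6 libraries and carry no test. A change was called only where a test across all genes passed its threshold, and this held for 147 genes that fell (1.30%) and 53 genes that rose (0.470%), each of them a member. In bulk RNA, fewer cells that express a gene and less of its RNA per cell cannot be told apart.

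Cryptochromes are the strongest repressors of the mammalian circadian clock. In a wild-type cell the activators CLOCK and BMAL1 bind E-box elements, whose best known form reads CACGTG, and drive the Cry, Per and Nr1d genes together with many output genes. CRY and PER proteins then block the activator pair, while the NR1D proteins repress Bmal1. Embryonic fibroblasts in culture carry this clock without any signal from the brain, and they are a common system for asking which genes a single clock protein can regulate. The glycolytic enzymes, which split glucose into pyruvate, and the targets of hypoxia-inducible factor 1 (HIF-1) are of interest here because BMAL1 and HIF-1α belong to 1 family of transcription factors, and HIF-1 binds a core sequence, ACGTG, that is contained in the E-box.

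All libraries came from mouse embryonic fibroblasts (MEFs) that lack Cry1, Cry2, Per1, Per2, Nr1d1 and Nr1d2, which is the genotype called CPN-/-. CPN-/-CRY1 and CPN-/-CRY2 cells additionally carried a viral Cry1 or Cry2 gene, which a viral promoter drives at all times without feedback from the clock. Each of these lines grew from a single colony, so that a difference between it and CPN-/- includes whatever distinguishes that clone, and clone and cryptochrome cannot be told apart within a line. Both CRY lines had passed through viral infection and selection with blasticidin, and the paper describes no line with an empty vector. These steps are shared by all CRY-expressing libraries and cannot be told apart from cryptochrome in this comparison. No time series was applied, and the paper describes no other treatment of these cultures before RNA was taken. The comparison asked what the lines with CRY1 and with CRY2 had in common. The 2 libraries of a line were separate RNA preparations, so that p-values measure the spread between preparations of 3 lines and not between independent clones. Total counts lay between 25957409 and 36106949 per library. Gene levels are normalised read counts relative to the TMM-scaled library size (CPM), listed in the order of replicates 1 and 2. Values "with CRY1" and "with CRY2" are those of the CPN-/-CRY1 and CPN-/-CRY2 lines. Replicate libraries of a line differed from each other with an SD over genes, on the log2 scale, of 0.435 in CPN-/-, 0.232 in CPN-/-CRY1 and 0.245 in CPN-/-CRY2, so that the CPN-/- pair was the least alike. Fibroblast genes were strongly expressed, with a summed level of 11523 to 14542 CPM over 14 markers in CPN-/- and 14054 to 18314 CPM in the CRY-expressing lines, although Thy1, Lum and Fap had at most 7 counts in any library. The summed level of 8 epithelial markers was between 0.166 and 1.96 CPM, with Epcam at 0 counts. Over 10 leukocyte markers, with Cd3e at 0 counts, it was at most 18.6 CPM in CPN-/- and at most 16.8 CPM in the CRY-expressing lines. Over 8 endothelial markers, mostly from Egfl7, it was 24.2 to 34.1 CPM in CPN-/- and 21.8 to 24.1 CPM in the CRY-expressing lines. Over 8 neural markers it was 108 to 137 CPM in CPN-/- and 149 to 196 CPM in the CRY-expressing lines, without overlap, almost all from Map2 and Nes, with Snap25 at 0 counts. Map2, a microtubule-associated protein, was a higher member and was not called. The part of these markers in the results was not tested.

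The promoter sequences below mark matches to short sequence elements in genes described here. They are RefSeq windows on GRCm38.p6 from 250 bases before to 50 bases after a transcription start, in the 5′ to 3′ direction of the gene, and positions count from that start. The first 4 belong to the named genes with the largest changes that have a window with an E-box, shown in capitals, at position −92 in Fez1, −202 in Tmem47, −108 in Bnip3 and −166 in Per1. Fez1 has 3 windows and Per1 has 2, and in each of these genes only the 1 printed holds an E-box.
Fez1, chr9:36832490-36832789, plus strand: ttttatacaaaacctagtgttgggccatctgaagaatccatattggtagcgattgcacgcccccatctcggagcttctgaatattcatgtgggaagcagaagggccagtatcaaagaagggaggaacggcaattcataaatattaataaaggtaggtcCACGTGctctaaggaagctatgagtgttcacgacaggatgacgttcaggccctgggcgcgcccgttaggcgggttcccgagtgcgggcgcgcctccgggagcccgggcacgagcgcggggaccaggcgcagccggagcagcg
Tmem47, chrX:81070394-81070693, plus strand: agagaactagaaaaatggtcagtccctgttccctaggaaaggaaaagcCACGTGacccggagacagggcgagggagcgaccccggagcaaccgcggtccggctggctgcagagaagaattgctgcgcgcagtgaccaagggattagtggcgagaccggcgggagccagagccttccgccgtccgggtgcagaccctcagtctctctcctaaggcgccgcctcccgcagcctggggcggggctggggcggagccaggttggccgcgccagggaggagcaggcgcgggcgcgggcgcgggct
Bnip3, chr7:138909457-138909756, minus strand: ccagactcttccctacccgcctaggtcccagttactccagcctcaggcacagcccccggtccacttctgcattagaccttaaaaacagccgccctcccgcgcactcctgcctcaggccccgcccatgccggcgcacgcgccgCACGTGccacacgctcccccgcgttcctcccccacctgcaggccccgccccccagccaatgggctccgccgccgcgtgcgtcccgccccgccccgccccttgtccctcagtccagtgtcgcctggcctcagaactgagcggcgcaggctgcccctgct
Per1, chr11:69098699-69098998, plus strand: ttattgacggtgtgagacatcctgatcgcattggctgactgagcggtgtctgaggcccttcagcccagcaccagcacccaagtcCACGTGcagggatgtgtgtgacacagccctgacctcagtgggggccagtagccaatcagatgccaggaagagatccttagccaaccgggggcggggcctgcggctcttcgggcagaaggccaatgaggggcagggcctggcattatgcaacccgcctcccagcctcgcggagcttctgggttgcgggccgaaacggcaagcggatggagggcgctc
The next ones are the windows of the neighbouring chemokine genes Cxcl1 and Cxcl2, which each hold 2 matches, on either strand, to GGG, any 2 bases and TTTCC, a short form of the element bound by NF-kB (capitals). The window of the glycolytic gene Pgk1 holds 2 matches to ACGTG, the core of a HIF-1 element, on opposite strands (capitals). These 3 windows were picked after the values were seen.
Cxcl1, chr5:90890995-90891294, plus strand: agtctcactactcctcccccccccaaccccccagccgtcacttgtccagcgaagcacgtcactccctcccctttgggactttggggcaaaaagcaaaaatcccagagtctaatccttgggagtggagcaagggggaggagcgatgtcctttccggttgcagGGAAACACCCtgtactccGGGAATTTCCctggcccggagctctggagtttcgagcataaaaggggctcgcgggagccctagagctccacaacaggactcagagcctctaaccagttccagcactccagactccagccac
Cxcl2, chr5:90903649-90903948, plus strand: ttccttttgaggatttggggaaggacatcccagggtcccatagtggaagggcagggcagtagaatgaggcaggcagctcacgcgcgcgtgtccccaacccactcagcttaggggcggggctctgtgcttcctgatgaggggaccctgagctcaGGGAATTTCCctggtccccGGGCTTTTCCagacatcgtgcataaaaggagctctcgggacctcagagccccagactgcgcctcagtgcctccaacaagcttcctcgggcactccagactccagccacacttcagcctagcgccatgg
Pgk1, chrX:106186850-106187149, plus strand: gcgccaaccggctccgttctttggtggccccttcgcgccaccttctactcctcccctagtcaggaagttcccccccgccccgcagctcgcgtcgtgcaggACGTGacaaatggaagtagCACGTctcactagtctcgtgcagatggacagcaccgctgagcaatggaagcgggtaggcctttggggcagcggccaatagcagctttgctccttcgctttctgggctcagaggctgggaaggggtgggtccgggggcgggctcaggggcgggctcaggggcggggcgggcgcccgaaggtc
A match to these letters is a description of the sequence, and whether a factor binds there was not measured.

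The 147 genes that fell changed by more than the 53 that rose. Of the former, 72 had a log2 fold change of −2 or below and 49 of −3 or below, whereas 6 of the latter had a value of 2 or above. A gene near 0 counts in the CRY-expressing libraries can pass the expression filter through CPN-/- alone. The median level was 3.94 CPM for the genes called lower and 25.9 CPM for those called higher. With at least 10 counts required in every library, 59 of the called genes were not tested, and 83 lower and 41 higher genes were called. The median log2 fold change was −1.92 for the genes called lower, 1.03 for those called higher, −0.41 and 0.44 for all lower and higher members, and 0.005 for all 11279 genes. Each adjusted p comes from the quasi-likelihood test of edgeR, with Benjamini-Hochberg adjustment over the 14069 tested genes, and the difference between the CRY lines counts as spread in this test. Unadjusted p-values under 0.05 were found for 2433 genes.

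**Figure D1:**
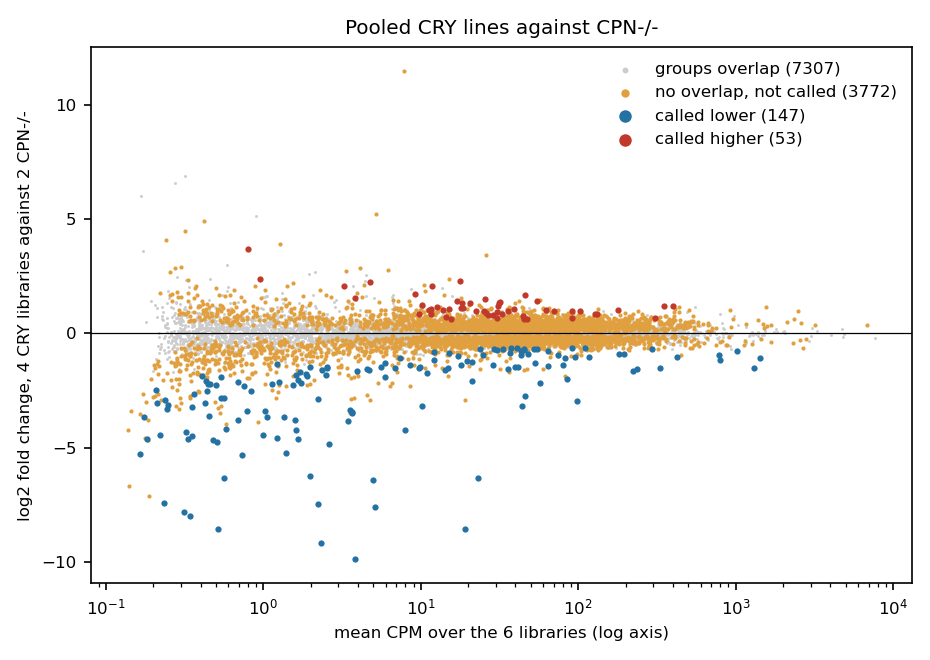
Log2 fold change of the 4 CRY-expressing libraries against the 2 CPN-/- libraries (vertical axis) against mean CPM on a log axis, for the 11279 genes outside the 4 chromosomes. Each point is a gene: 147 called lower (blue), 53 called higher (red), members that were not called (orange) and 7307 genes whose groups overlap (grey).

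How many genes were called depended strongly on the CPN-/- libraries. Without CPN-/- replicate 1 the counts were 835 lower and 1151 higher genes, and without CPN-/- replicate 2 they were 20 and 1, where in both cases the remaining CPN-/- library was assumed to vary like the others. Leaving out CPN-/-CRY1 replicate 1 or 2 gave 76 or 67 lower and 17 or 15 higher genes, and leaving out CPN-/-CRY2 replicate 1 or 2 gave 89 or 98 lower and 23 or 26 higher genes. Each called gene was a member, so that its sign was all but fixed when a library was left out. None of the 200 called genes changed sign in those of the 6 fits in which it was tested, and 20 genes were called in all of them. These were Cxcl5, Saa3, C3, Nos2, Lcn2, H19, Cxcl1, Casp4, Grb14, Ccl2, Spp1, Cxcl12, Pgk1, Nfkbie, Tmem176a, Cx3cl1, Nfkbia, Emb and P4ha2, which were lower, and the noncoding RNA Lncenc1, which was higher. For most genes given below with their levels, the adjusted p is also given without a library on which the call rests.

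**Figure D2:**
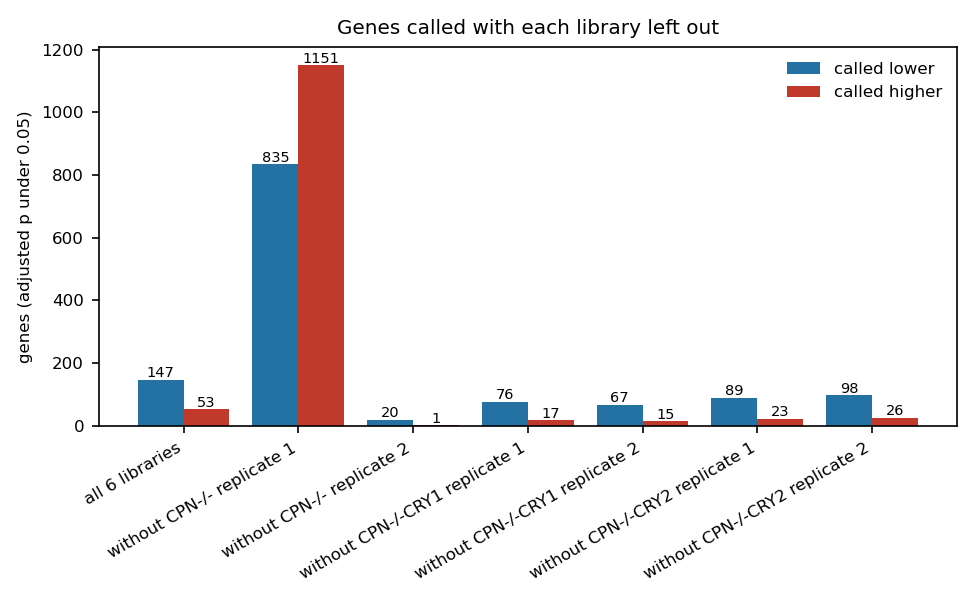
Number of genes called lower (blue) and higher (red) outside the 4 chromosomes at an adjusted p under 0.05, with all 6 libraries and with each left out in turn. The counts range from 20 and 1 without CPN-/- replicate 2 to 835 and 1151 without CPN-/- replicate 1, beside 147 and 53 with all libraries.

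Transcript length moved with these groups. The difference between the 2 CPN-/- libraries correlated with length across genes (Spearman's rho 0.659 over 12478 genes, which are not independent replicates; −0.198 and 0.271 in CPN-/-CRY1 and CPN-/-CRY2). The median transcript length was 2639.5 bases for lower members and 4552 bases for higher members, against 3388 bases for all 11279 genes. After each library's trend with length was removed, the medians were 3426 and 3485 bases and the members numbered 2001 and 1921, which included 1497 of 1826 earlier lower members and 1514 of 1949 earlier higher members with a known length. The genes called were then 173 lower and 93 higher, with 184 of the 200 earlier calls among them.

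The knocked-out genes were examined first, since exogenous Cry1 or Cry2 is counted together with any remaining transcript of the disrupted gene. Cry1 was at 125 and 115 CPM in CPN-/- cells, 165 and 189.6 CPM with CRY1 and 50.997 and 48.3 CPM with CRY2, so that it lay above CPN-/- in 1 line and below it in the other. Cry2 was at 136 and 129 CPM in CPN-/- cells, 50.7 and 51.7 CPM with CRY1 and 349 and 351 CPM with CRY2, with the opposite order. Neither was a member. Per1 (NCBI Gene 18626), whose promoter is a classical CLOCK-BMAL1 target, fell in both lines and was at 65.4 and 63.1 CPM in CPN-/- cells, 17.3 and 15.4 CPM with CRY1 and 26.6 and 27.3 CPM with CRY2. The difference for Per1 was −1.57 on the log2 scale, with a standard error of 0.24 and an adjusted p = 0.0285. Its adjusted p was 0.252 without CPN-/- replicate 2 and 0.0639 without CPN-/-CRY1 replicate 1. Per2 was at 90.4 and 79.4 CPM in CPN-/- cells, 18.8 and 15.8 CPM with CRY1 and 38.8 and 41.3 CPM with CRY2, also without overlap, but was not called (log2 fold change −1.57, standard error 0.39, adjusted p = 0.117). Nr1d2 was a lower member with a log2 fold change of −0.21 (adjusted p = 0.296), and Nr1d1 was not a member, with −0.12 (adjusted p = 0.693). These transcripts come from disrupted genes and give no measure of protein.

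Of 15 other clock genes tested outside the 4 chromosomes, 6 were lower members, 4 were higher members and none was called by edgeR. Lower and higher members made up 17.1% and 18.1% of all 11279 genes. Of the 15, 9 had an unadjusted p under 0.05, beside 2433 of all 11279 genes. The 3-line model, in which the difference between CRY lines does not count as spread, called 4 lower and 2 higher, and DESeq2 called 3 and 2. Over the 11279 genes, the 3-line model called 903 lower and 693 higher, and DESeq2 called 402 and 470. Dbp, a transcription factor of the clock's output that is driven by E-boxes, was at 62.6 and 70.7 CPM in CPN-/- cells, 14.97 and 11.1 CPM with CRY1 and 27.3 and 30.3 CPM with CRY2. Dbp had a log2 fold change of −1.68 with a standard error of 0.38 (adjusted p = 0.092). All 4 CRY-expressing libraries were therefore below CPN-/-, with CPN-/-CRY1 the lowest. The E-box repressor Bhlhe40 had a log2 fold change of −1.59 (adjusted p = 0.0868) and Hlf, a relative of Dbp, −2.805 (adjusted p = 0.136). The positive arm lay on the other side. Bmal1 (listed as Arntl) was at 43.98 and 40.5 CPM in CPN-/- cells, 52.8 and 56.2 CPM with CRY1 and 54.7 and 51.7 CPM with CRY2 (log2 fold change 0.35, standard error 0.096, adjusted p = 0.144), and its partner Clock had a log2 fold change of 0.58 (adjusted p = 0.184). The median over the 15 genes was −0.36, beside 0.005 for all genes.

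Several glycolytic enzymes fell in the CRY-expressing lines. Of 14 tested, 9 were lower members, none was a higher member, and 7 were called lower, with a median log2 fold change of −0.65. Lower members made up 17.1% of all 11279 genes, and genes called lower 1.30%. Pgk1, phosphoglycerate kinase, which makes the first ATP of the pathway's pay-off phase (NCBI Gene 18655, chrX:106187100-106203699), was at 341 and 503 CPM in CPN-/- cells, 135 and 139 CPM with CRY1 and 149.5 and 159 CPM with CRY2. For Pgk1 the log2 fold change was −1.54 with a standard error of 0.16 (adjusted p = 0.00809). The call of Pgk1 held without any single library. Pfkl, the liver-type phosphofructokinase at the committed step, was at 551 and 627 CPM in CPN-/- cells, 173 and 171 CPM with CRY1 and 236 and 238 CPM with CRY2 (log2 fold change −1.53, standard error 0.17, adjusted p = 0.0114), and its adjusted p was 0.148 without CPN-/- replicate 2. The isomerase Tpi1 was at 1069 and 1440.4 CPM in CPN-/- cells, 532 and 506 CPM with CRY1 and 588 and 616 CPM with CRY2 (log2 fold change −1.16, standard error 0.15, adjusted p = 0.017), and the aldolase Aldoa was at 2005 and 2365 CPM in CPN-/- cells, 1019 and 1039 CPM with CRY1 and 1033 and 1088 CPM with CRY2. The difference for Aldoa was −1.06 on the log2 scale, with a standard error of 0.11 and an adjusted p = 0.00738. The adjusted p of Aldoa was 0.0514 without CPN-/- replicate 2, and that of Tpi1 was 0.121 without it, 0.0524 without CPN-/-CRY1 replicate 1 and 0.0542 without CPN-/-CRY1 replicate 2. The enolase Eno1 was at 1022 and 1274 CPM in CPN-/- cells, 597 and 616 CPM with CRY1 and 573 and 612 CPM with CRY2. Eno1 had a log2 fold change of −0.94 with a standard error of 0.12 (adjusted p = 0.0152). Its adjusted p was 0.0796 without CPN-/- replicate 2, 0.0526 and 0.0542 without CPN-/-CRY1 replicate 1 or 2, and 0.0511 without CPN-/-CRY2 replicate 1. Eno1b is a near-identical copy of Eno1, so that reads can be split between them, and it was called lower as well, at −0.65. The isomerase Gpi1 and hexokinase 2 (Hk2) were called at −0.89 and −0.66, Gpi1 not without CPN-/- replicate 2 (0.0748) and Hk2 only without CPN-/- replicate 1 among the left-out libraries. The pyruvate kinase Pkm, at −0.64 (adjusted p = 0.0506), and Gapdh, at −0.504 (adjusted p = 0.132), were lower members that were not called, and hexokinase 1 and Pfkp were not members, at −0.05 and 0.06. The number of enzymes called was 1 without CPN-/- replicate 2, 9 without CPN-/- replicate 1, and between 4 and 6 without any 1 of the CRY-expressing libraries.

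Of 18 tested genes of glucose uptake and of lactate and pyruvate handling, 10 were lower members, 3 were higher members and 2, Ldha and Slc16a3, were called lower. The shares over all 11279 genes were 17.1%, 18.1% and 1.30%, in the same order. Ldha, the lactate dehydrogenase subunit that favours lactate formation (NCBI Gene 16828, chr7:46842274-46855627), was at 1978 and 2654 CPM in CPN-/- cells, 677 and 656 CPM with CRY1 and 936 and 1016 CPM with CRY2. For Ldha the log2 fold change was −1.496 with a standard error of 0.22 (adjusted p = 0.0234). CPN-/-CRY1 had the lowest levels of Ldha. Its adjusted p was 0.254 without CPN-/- replicate 2, and 0.0577 or 0.0553 without CPN-/-CRY1 replicate 1 or 2. Slc16a3, the exporter MCT4 that carries lactate out of the cell, was at 3.99 and 4.57 CPM in CPN-/- cells, 0.858 and 1.52 CPM with CRY1 and 1.51 and 1.705 CPM with CRY2 (log2 fold change −1.62, standard error 0.29, adjusted p = 0.0477), and it was no longer called without CPN-/- replicate 2 (adjusted p = 0.341), CPN-/-CRY1 replicate 1 (0.0571) or 2 (0.104), or CPN-/-CRY2 replicate 1 (0.1) or 2 (0.0697). Bsg, or basigin, the chaperone that brings this exporter to the membrane, was at 1269 and 1531 CPM in CPN-/- cells, 769 and 774 CPM with CRY1 and 875 and 880.5 CPM with CRY2 (log2 fold change −0.76, standard error 0.12, adjusted p = 0.035), and its adjusted p lay between 0.0697 and 0.217 when any library other than CPN-/- replicate 1 was left out. Pdk1, the kinase that inhibits pyruvate dehydrogenase (NCBI Gene 228026, chr2:71873215-71903858), was at 158 and 163 CPM in CPN-/- cells, 29.4 and 27.6 CPM with CRY1 and 56.8 and 63.3 CPM with CRY2. It did not overlap between groups but just missed the threshold (log2 fold change −1.86, standard error 0.34, adjusted p = 0.0537), and its lines differed from each other by −1.07 (adjusted p = 0.00112). Its relatives Pdk2 and Pdk4 were higher members at 0.58 (adjusted p = 0.138) and 0.63 (adjusted p = 0.127). The median log2 fold change of the list was −0.21, and between 0 and 4 of its genes were called lower when 1 library was left out, the most without CPN-/- replicate 1.

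HIF targets outside glycolysis showed a similar pattern, with 14 of 17 tested genes lower members, none a higher member, 7 called lower and a median log2 fold change of −0.71. Of all 11279 genes, 17.1% were lower members and 1.30% were called lower. Bnip3, a mitochondrial protein that promotes mitophagy (NCBI Gene 12176, chr7:138890836-138909506), was at 163 and 179 CPM in CPN-/- cells, 35.3 and 35.9 CPM with CRY1 and 50.2 and 49.8 CPM with CRY2 (log2 fold change −1.997, standard error 0.17, adjusted p = 0.00444; adjusted p = 0.0838 without CPN-/- replicate 2). Its levels were lowest in CPN-/-CRY1. Higd1a, a mitochondrial protein induced by hypoxia, was at 112 and 160.1 CPM in CPN-/- cells, 46.3 and 48.1 CPM with CRY1 and 54.7 and 57.999 CPM with CRY2 (log2 fold change −1.39, standard error 0.16, adjusted p = 0.0127; adjusted p = 0.1 without CPN-/- replicate 2). Egln3, a prolyl hydroxylase that marks HIF-α for degradation, was at 31.2 and 29.97 CPM in CPN-/- cells, 13.6 and 13.9 CPM with CRY1 and 10.5 and 9.41 CPM with CRY2 (log2 fold change −1.37, standard error 0.17, adjusted p = 0.0162; adjusted p = 0.17 without CPN-/- replicate 2), and here CPN-/-CRY2 was the lower line. The collagen prolyl hydroxylases P4ha2 and P4ha1 were called at −1.02 and −1.01, the ER oxidase Ero1a at −1.03 and Egln1 at −0.64. Of these 4, P4ha2 was called in each of the 6 fits that left out a library, and P4ha1 in none of them. Hif1a itself was at 370.4 and 282 CPM in CPN-/- cells, 244 and 247 CPM with CRY1 and 352 and 352 CPM with CRY2 and was not a member (log2 fold change −0.13, standard error 0.21, adjusted p = 0.737); its sign turned to 0.08 without CPN-/- replicate 1. The angiogenic factor Vegfa was a lower member at −0.63 (adjusted p = 0.214). The number of targets called was 1 without CPN-/- replicate 2, 7 without CPN-/- replicate 1, and 4 or 5 without any 1 of the CRY-expressing libraries.

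**Figure D3:**
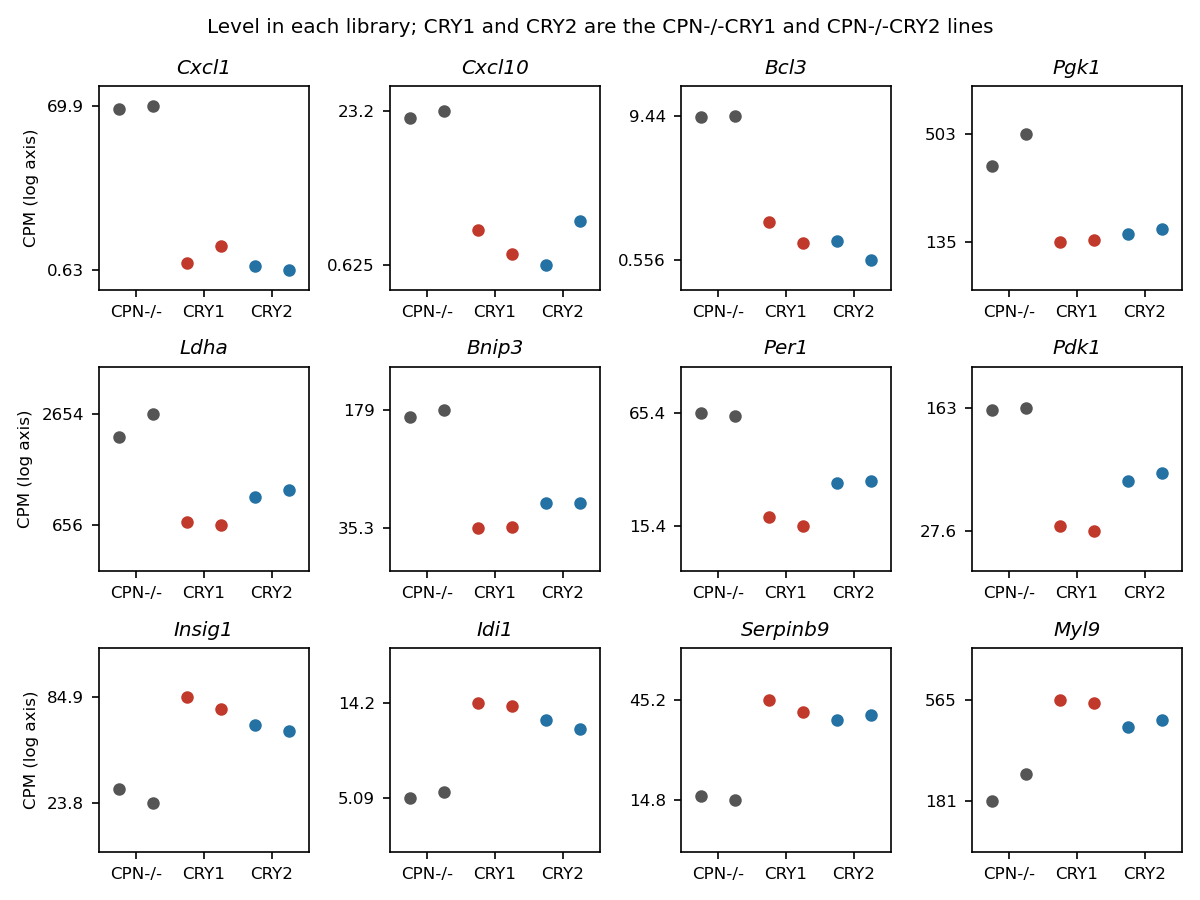
CPM on log axes for 12 genes in each library, with CPN-/- in grey, CPN-/-CRY1 in red and CPN-/-CRY2 in blue, and the lowest and highest value marked on each axis. All 12 are members, so that the rule itself places the 4 CRY-expressing libraries on 1 side of both CPN-/- libraries. Pdk1 was the only gene of the 12 that was not called by edgeR (adjusted p = 0.0537).

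Chemokine genes had the lowest median of the gene lists examined. Of 27 listed chemokines, 13 were tested, and the others had at most 8 counts in any library. Among the 13, 12 were lower members and 10 were called lower, beside 17.1% and 1.30% of all 11279 genes. The median log2 fold change was −4.21. Cxcl2 and Cxcl5 passed the expression filter through CPN-/- alone, so that the filter had a part in these counts and this median. Cxcl1, a neutrophil attractant (NCBI Gene 14825, chr5:90891245-90893121), was at 65.5 and 69.9 CPM in CPN-/- cells, 0.775 and 1.27 CPM with CRY1 and 0.698 and 0.63002 CPM with CRY2. The difference for Cxcl1 was −6.31 on the log2 scale, with a standard error of 0.23 and an adjusted p = 0.000249. The groups were separated by a log2 distance of 5.70 between their nearest libraries, and the call held without any single library. Its relative Cxcl5 (NCBI Gene 20311, chr5:90759298-90761625) was at 11.3 and 11.6 CPM in CPN-/- cells, 0.0277 and 0 CPM with CRY1 and 0 and 0 CPM with CRY2 (adjusted p = 0.000388). Since 661 counts in the CPN-/- libraries stood against 1 count in the 4 CRY-expressing libraries, the ratio of levels was 1384 with a 95% exact interval of 247.5 to 54748, which covers counting error only. Cxcl2 had 40 counts in CPN-/- and 0 in the other 4 libraries, and was at least 27.9-fold lower against a floor of 3 counts over the group (adjusted p = 0.0466). With any 1 library left out, the adjusted p of Cxcl2 was between 0.0575 and 0.414. Cxcl10, an interferon-inducible attractant of T cells, was at 19.9 and 23.2 CPM in CPN-/- cells, 1.44 and 0.811 CPM with CRY1 and 0.625 and 1.78 CPM with CRY2 (log2 fold change −4.21, standard error 0.36, adjusted p = 0.00401; adjusted p = 0.0854 without CPN-/- replicate 2). The most abundant members were Cxcl12, which guides stem and immune cells, and Ccl2, which attracts monocytes. Cxcl12 was at 436 and 379.98 CPM in CPN-/- cells, 121 and 132 CPM with CRY1 and 136 and 137 CPM with CRY2 (log2 fold change −1.64, standard error 0.11, adjusted p = 0.00113), and Ccl2 was at 194 and 273 CPM in CPN-/- cells, 34.97 and 35.1 CPM with CRY1 and 22.6 and 27.6 CPM with CRY2. Ccl2 had a log2 fold change of −2.95 with a standard error of 0.21 (adjusted p = 0.00182). Both, like the membrane-bound Cx3cl1 at −1.38, were called without any single library. The number of chemokines called was 5 without CPN-/- replicate 2 and 8 or 9 without another library.

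Among 15 inflammatory mediators and NF-kB pathway genes, 12 were lower members, none was a higher member, and 9 were called lower, with a median log2 fold change of −1.31. Corresponding shares of all 11279 genes were 17.1%, 18.1% and 1.30%. Of the genes given below, Nos2, Lcn2 and Saa3 passed the expression filter through CPN-/- alone. Nos2, the inducible nitric oxide synthase (NCBI Gene 18126, chr11:78920787-78960226), was at 17.7 and 12.9 CPM in CPN-/- cells, 0.0277 and 0.0649 CPM with CRY1 and 0.1102 and 0.111 CPM with CRY2. For Nos2 the log2 fold change was −7.59 with a standard error of 0.34 (adjusted p = 0.000388). Lcn2, an iron-binding acute phase protein, was at 6.005 and 7.14 CPM in CPN-/- cells, 0.0277 and 0 CPM with CRY1 and 0.0735 and 0.0371 CPM with CRY2 (adjusted p = 0.00113). Saa3, a serum amyloid A protein, was at 4.904 and 9.06 CPM in CPN-/- cells, 0.0277 and 0 CPM with CRY1 and 0 and 0 CPM with CRY2. The latter 4 libraries held 1 count in all, which gave a ratio of levels of 821 with a 95% exact interval of 146.5 to 32501. All 3 were called without any single library. Bcl3, a nuclear partner of NF-kB, was at 9.27 and 9.44 CPM in CPN-/- cells, 1.19 and 0.778 CPM with CRY1 and 0.808 and 0.556 CPM with CRY2 (log2 fold change −3.47, standard error 0.27, adjusted p = 0.00282; adjusted p = 0.0668 without CPN-/- replicate 2). The inhibitors Nfkbia and Nfkbie, which NF-kB itself induces, were called at −1.31 and −1.504, also without any single library, and the subunit Relb, the prostaglandin synthase Ptges and the cytokine Lif were called at −0.98, −4.18 and −1.46. Without CPN-/- replicate 2 the number called was 5, and the adjusted p of Relb, Ptges and Lif was 0.125, 0.0657 and 0.15, while 9 were called without any other single library. Il6 and Ptgs2 were not members, at −0.202 (adjusted p = 0.905) and −0.01 (adjusted p = 0.983). Leukocyte markers are given above; Cd14, the most abundant of them, had between 218 and 379 counts per library. Their part in these differences was not tested.

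Complement genes gave 4 lower members among 8 tested, of which C3 and Clu were called, with a median log2 fold change of −0.88. C3, on which all complement pathways converge (NCBI Gene 12266, chr17:57203967-57228136), was at 69.4 and 44.1 CPM in CPN-/- cells, 0.221 and 0.0324 CPM with CRY1 and 0.0735 and 0.259 CPM with CRY2. The difference for C3 was −8.54 on the log2 scale, with a standard error of 0.402 and an adjusted p = 0.000388. The CPN-/- replicates themselves differed for C3, but both were far above the other 4 libraries, and the call held without any single library. Clu, or clusterin, a secreted chaperone that restrains complement, was at 17.2 and 17.04 CPM in CPN-/- cells, 4.93 and 4.898 CPM with CRY1 and 7.27 and 8.12 CPM with CRY2. Clu had a log2 fold change of −1.44 with a standard error of 0.23 (adjusted p = 0.033). It was not called without CPN-/- replicate 2 (adjusted p = 0.26), CPN-/-CRY1 replicate 1 (0.0677) or 2 (0.0686) or CPN-/-CRY2 replicate 1 (0.0598).

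Interferon-stimulated genes were mostly not called, as were most of all 11279 genes (1.30% called lower and 0.470% higher). Of 22 tested, 3 were lower and 10 were higher members, with a median log2 fold change of 0.51. Taken line by line, this median came to 0.78 with CRY1 but only 0.14 with CRY2, so that the pooled value rested mostly on the first line. Of the 22 genes, 1 was called. This was Irf1, a transcription factor that responds to interferon-γ and NF-kB, which was at 58.3 and 61.7 CPM in CPN-/- cells, 40.1 and 31.1 CPM with CRY1 and 35.3 and 35.4 CPM with CRY2. For Irf1 the log2 fold change was −0.76 with a standard error of 0.12 (adjusted p = 0.0306). Its adjusted p was between 0.0508 and 0.224 when any library other than CPN-/- replicate 1 was left out. Oas2, at 1.79 (adjusted p = 0.212), was a higher member that was not called. Genes of antigen presentation by MHC class I gave 6 lower members among 16 and 1 call, H2-M3, a nonclassical class I molecule, which was at 12.8 and 16.6 CPM in CPN-/- cells, 6.64 and 5.32 CPM with CRY1 and 5.44 and 4.85 CPM with CRY2 (log2 fold change −1.397, standard error 0.18, adjusted p = 0.0162; adjusted p = 0.17 without CPN-/- replicate 2 and 0.0542 without CPN-/-CRY1 replicate 2). The MHC class I list had a pooled median of −0.39, and its medians by line were unequal, at −0.31 with CRY1 and −0.96 with CRY2. Its summed level overlapped between groups, at 1035 to 1162 CPM in the CPN-/- libraries against 685 to 1284 CPM in the CRY-expressing ones. Whether the lines differ over either list as a whole was not tested. H2-K1, which is abundant in most cells, was a lower member at −1.55 (adjusted p = 0.293). Chromosome 17, where the H2 genes lie, had 27.15% of its 674 tested genes as lower and 8.9% as higher members, against 17.1% and 18.1% over all chromosomes used, and its median log2 fold change was −0.08.

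Cholesterol synthesis was the list with the most higher members. Of 18 genes tested, 17 were higher members, the other, Ebp, was at −0.02, and 5 were called, with a median log2 fold change of 0.77. Higher members made up 18.1% of all 11279 genes, and genes called higher 0.470%. Insig1, which retains the sterol sensor SCAP in the endoplasmic reticulum and is itself induced when sterols are low (NCBI Gene 231070, chr5:28071412-28078662), was at 28.1 and 23.8 CPM in CPN-/- cells, 84.9 and 73.7 CPM with CRY1 and 61.1 and 56.6 CPM with CRY2. The difference for Insig1 was 1.41 on the log2 scale, with a standard error of 0.19 and an adjusted p = 0.0194. Hsd17b7, a reductase of the late pathway, was at 18.3 and 12.7 CPM in CPN-/- cells, 43.5 and 41.3 CPM with CRY1 and 37.5 and 35.7 CPM with CRY2 (log2 fold change 1.34, standard error 0.18, adjusted p = 0.0184), and Idi1, the isomerase that supplies dimethylallyl diphosphate, was at 5.09 and 5.45 CPM in CPN-/- cells, 14.2 and 13.7 CPM with CRY1 and 11.8 and 10.7 CPM with CRY2. Idi1 had a log2 fold change of 1.26 with a standard error of 0.17 (adjusted p = 0.019). In each of the 3, CPN-/-CRY1 was above CPN-/-CRY2. Cyp51, which demethylates lanosterol, and Nsdhl, which acts after it, were called at 0.98 and 0.803. None of the 5 was called without CPN-/- replicate 2 (adjusted p between 0.113 and 0.233) or without CPN-/-CRY1 replicate 2 (between 0.0535 and 0.0655), 3 were called without CPN-/-CRY1 replicate 1, 4 without either CPN-/-CRY2 replicate, and 11 genes of the list without CPN-/- replicate 1. With the length trend removed, 17 genes were higher members and 10 were called.

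Genes of the contractile apparatus gave 11 higher members and 1 lower member among 17, with a median log2 fold change of 0.56 and 2 calls. Myl9, a regulatory light chain of smooth muscle and nonmuscle myosin, was at 181 and 243 CPM in CPN-/- cells, 565 and 543 CPM with CRY1 and 413 and 451 CPM with CRY2. For Myl9 the log2 fold change was 1.22 with a standard error of 0.19 (adjusted p = 0.0306). It was not called without CPN-/- replicate 2 (adjusted p = 0.141), CPN-/-CRY1 replicate 1 (0.0679) or 2 (0.0735), or CPN-/-CRY2 replicate 2 (0.0562). Lmod1, which nucleates actin filaments in smooth muscle, was at 16.1 and 16.7 CPM in CPN-/- cells, 31.02 and 29.8 CPM with CRY1 and 30.02 and 31.6 CPM with CRY2 (log2 fold change 0.903, standard error 0.101, adjusted p = 0.0105; adjusted p = 0.074 without CPN-/- replicate 2). Actg2 and Acta1, actins of smooth and skeletal muscle, had larger log2 fold changes, 3.42 (adjusted p = 0.117) and 2.88 (adjusted p = 0.168), but were not called. TGF-β and BMP signalling genes gave 7 higher and 2 lower members among 26, a median of 0.22, and 2 calls. These were Inhbb, an activin subunit, which was at 58.2 and 50.9 CPM in CPN-/- cells, 108 and 106 CPM with CRY1 and 113 and 109 CPM with CRY2 (log2 fold change 1.000, standard error 0.104, adjusted p = 0.00759; adjusted p = 0.056 without CPN-/- replicate 2), and Ccn2, the matricellular protein CTGF, which was at 159 and 216 CPM in CPN-/- cells, 404 and 506 CPM with CRY1 and 409 and 406 CPM with CRY2. The difference for Ccn2 was 1.200 on the log2 scale, with a standard error of 0.17 and an adjusted p = 0.0218. The adjusted p of Ccn2 was 0.0935 without CPN-/- replicate 2, and between 0.0511 and 0.0554 without either CPN-/-CRY1 replicate or CPN-/-CRY2 replicate 1. Matrix genes gave 10 higher and 2 lower members among 24 and no call, with Col4a1 at 1.17 (adjusted p = 0.218). An unadjusted p under 0.05 by edgeR was found for 9 of them, beside 2433 of all 11279 genes. DESeq2 called 5 higher and 0 lower, beside 470 higher and 402 lower among the 11279. Among 11 p53 targets, 7 were higher members and 1 was called, the nuclease Aen, which was at 36.7 and 32.5 CPM in CPN-/- cells, 54.4 and 56.8 CPM with CRY1 and 51.7 and 50.8 CPM with CRY2 (log2 fold change 0.63, standard error 0.11, adjusted p = 0.0399), and whose adjusted p was between 0.0821 and 0.201 when any library other than CPN-/- replicate 1 was left out.

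**Figure D4:**
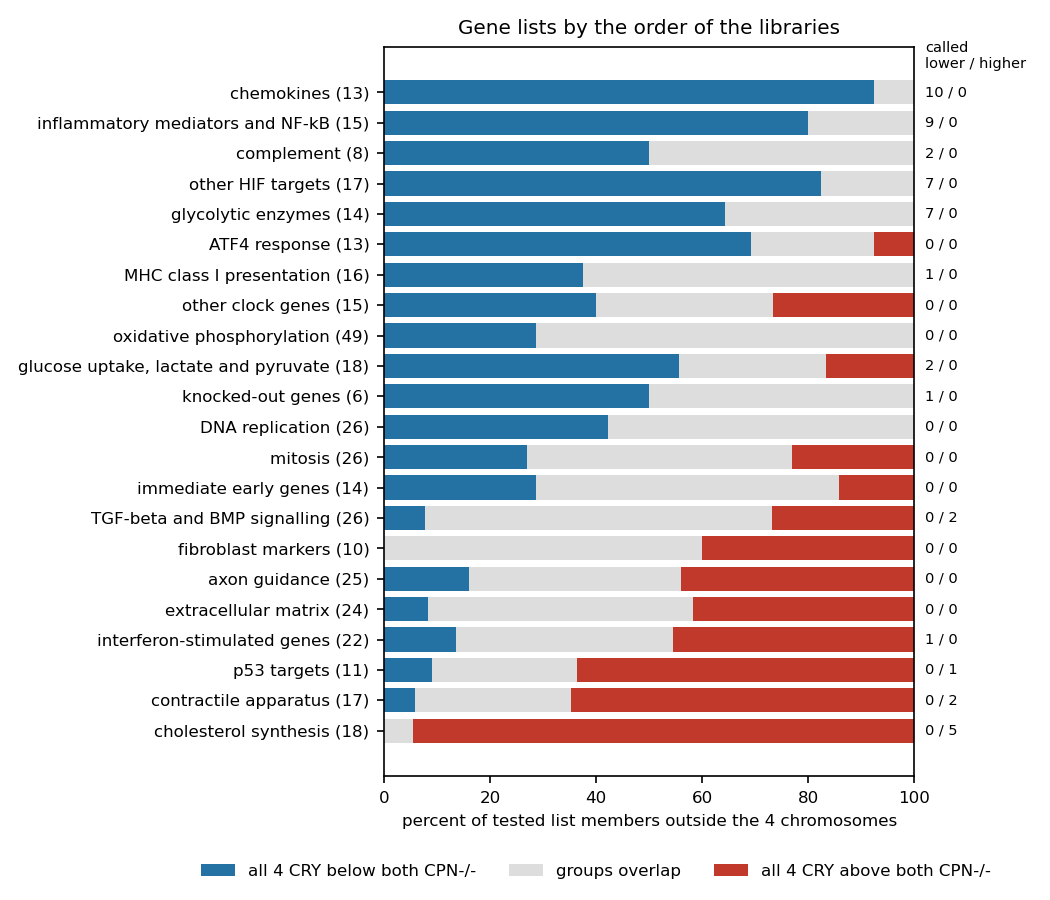
Share of the tested members of 22 gene lists (number tested in parentheses) for which all 4 CRY-expressing libraries lie below (blue) or above (red) both CPN-/- libraries, or overlap with them (grey), ordered by median log2 fold change. The numbers at the right give the genes called lower and higher, from 10 and 0 for chemokines to 0 and 5 for cholesterol synthesis.

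Several strongly changed genes belonged to none of these lists. Grb14, an adaptor that inhibits the insulin receptor (NCBI Gene 50915, chr2:64912476-65022766), was at 23.3 and 26.4 CPM in CPN-/- cells, 2.52 and 2.08 CPM with CRY1 and 3.49 and 2.85 CPM with CRY2 (log2 fold change −3.19, standard error 0.201, adjusted p = 0.00113), and its call held without any single library. Fbln2, a fibulin of the extracellular matrix, was at 10.5 and 8.02 CPM in CPN-/- cells, 1.08 and 1.04 CPM with CRY1 and 0.661 and 0.593 CPM with CRY2 (log2 fold change −3.44, standard error 0.28, adjusted p = 0.00355; adjusted p = 0.0514 without CPN-/- replicate 2). Fez1, a kinesin adaptor, was at 7.23 and 10.6 CPM in CPN-/- cells, 1.02 and 1.2002 CPM with CRY1 and 0.698 and 0.593 CPM with CRY2 (log2 fold change −3.33, standard error 0.31, adjusted p = 0.0055; adjusted p = 0.0939 without CPN-/- replicate 2). Gfra2, a receptor for neurturin, was at 10.2 and 7.79 CPM in CPN-/- cells, 0.387 and 0.195 CPM with CRY1 and 0.919 and 1.11 CPM with CRY2 (log2 fold change −3.81, standard error 0.54, adjusted p = 0.0218), with lower levels in CPN-/-CRY1, and its adjusted p was 0.195 without CPN-/- replicate 2 and 0.0554 without CPN-/-CRY1 replicate 1.

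On the other side, Tmem47, a junctional membrane protein, was at 5.12 and 4.72 CPM in CPN-/- cells, 29.9 and 34.3 CPM with CRY1 and 18.1 and 14.97 CPM with CRY2. Tmem47 had a log2 fold change of 2.304 with a standard error of 0.38 (adjusted p = 0.038). Its adjusted p was 0.0573 and 0.357 without CPN-/- replicate 1 or 2 and 0.0733 and 0.0553 without CPN-/-CRY1 replicate 1 or 2. Ldb3, a protein of the muscle Z-disc, was at 3.84 and 3.72 CPM in CPN-/- cells, 19.4 and 19.4 CPM with CRY1 and 11.8 and 12.2 CPM with CRY2 (log2 fold change 2.05, standard error 0.28, adjusted p = 0.0194; adjusted p = 0.245 without CPN-/- replicate 2). In both genes CPN-/-CRY1 was the higher line. The serpin Serpinb9, which inhibits granzyme B (NCBI Gene 20723, chr13:32997061-33017955), was at 15.6 and 14.8 CPM in CPN-/- cells, 45.2 and 39.7 CPM with CRY1 and 36.4 and 38.5 CPM with CRY2 (log2 fold change 1.396, standard error 0.13, adjusted p = 0.00526; adjusted p = 0.0775 without CPN-/- replicate 2). Its relative Serpinb8 was at 1.73 and 0.959 CPM in CPN-/- cells, 8.72 and 7.59 CPM with CRY1 and 4.81 and 4.85 CPM with CRY2 (log2 fold change 2.26, standard error 0.39, adjusted p = 0.0431), and was not called when any library other than CPN-/- replicate 1 was left out (adjusted p between 0.0528 and 0.336). Itga1, a collagen-binding integrin subunit, was at 14.1 and 8.79 CPM in CPN-/- cells, 27.1 and 28.1 CPM with CRY1 and 37.6 and 37.7 CPM with CRY2 (log2 fold change 1.504, standard error 0.25, adjusted p = 0.038), and Mertk, a receptor for apoptotic cells, was at 2.04 and 1.27 CPM in CPN-/- cells, 5.15 and 4.51 CPM with CRY1 and 4.56 and 5.41 CPM with CRY2. For Mertk the log2 fold change was 1.56 with a standard error of 0.25 (adjusted p = 0.0332). Both lost the call without any library other than CPN-/- replicate 1, with adjusted p-values between 0.0577 and 0.259 and between 0.0711 and 0.194. Plekha6 and Csgalnact1, which starts chondroitin sulfate chains, rose by 1.73 and 1.42 (adjusted p = 0.0206 and 0.0152; 0.194 and 0.141 without CPN-/- replicate 2), and Plekha6 also lost its call without CPN-/-CRY1 replicate 1 (0.0562) or 2 (0.0542).

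The most abundant genes that rose were Myl9, Ccn2, Msrb3, Thbd and Hdgfl3. Msrb3, a methionine sulfoxide reductase, was at 239.97 and 199 CPM in CPN-/- cells, 353 and 356 CPM with CRY1 and 352 and 349.7 CPM with CRY2 (log2 fold change 0.69, standard error 0.11, adjusted p = 0.0357), so that the 4 CRY-expressing libraries were close together. Thbd, or thrombomodulin, an anticoagulant receptor, was at 114 and 99.2 CPM in CPN-/- cells, 232 and 229.6 CPM with CRY1 and 207 and 198 CPM with CRY2 (log2 fold change 1.02, standard error 0.12, adjusted p = 0.0132; adjusted p = 0.121 without CPN-/- replicate 2). Hdgfl3, a relative of hepatoma-derived growth factor, was at 91.1 and 82.2 CPM in CPN-/- cells, 161 and 168 CPM with CRY1 and 150.4 and 143 CPM with CRY2. The difference for Hdgfl3 was 0.85 on the log2 scale, with a standard error of 0.12 and an adjusted p = 0.019. Msrb3 lost its call when any library other than CPN-/- replicate 1 was left out (adjusted p between 0.0856 and 0.136). Hdgfl3 lost it without CPN-/- replicate 2 (0.15), CPN-/-CRY1 replicate 1 (0.0629) or 2 (0.0553) and CPN-/-CRY2 replicate 1 (0.0511).

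**Figure D5:**
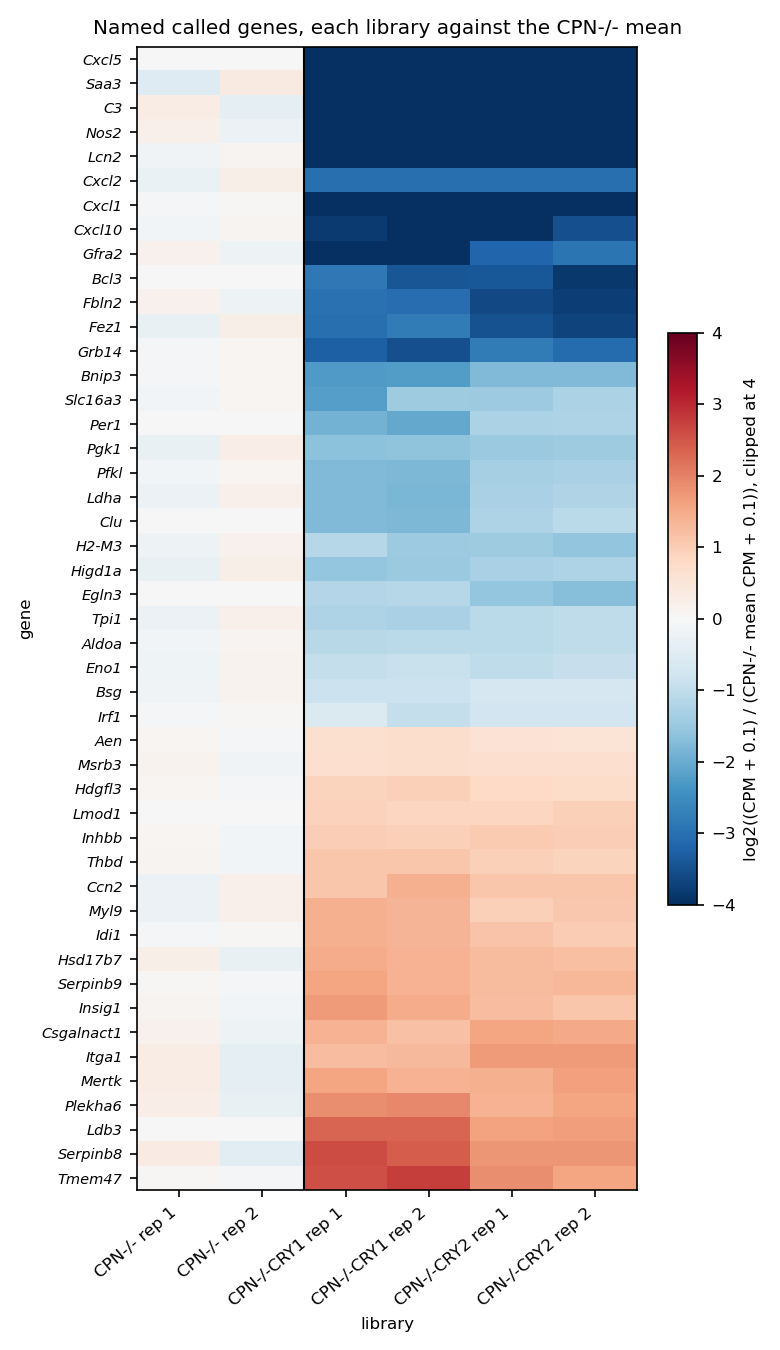
Log2 ratio of each library's CPM to the CPN-/- mean, with 0.1 CPM added to both and colours clipped at 4, for the 47 named genes that were called (28 lower, 19 higher), ordered by log2 fold change. The CPN-/- columns are near white and the 4 CRY-expressing columns are blue for the lower and red for the higher genes.

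Genes of energy production and growth, among others, had no calls with all libraries. Over all 11279 genes, 17.1% were lower and 18.1% were higher members. Of 49 subunits of oxidative phosphorylation, 14 were lower members, with a median log2 fold change of −0.35, and the median was −0.11 with the length trend removed, −0.62 without CPN-/- replicate 1 (32 called) and −0.04 without CPN-/- replicate 2 (0 called). For genes that respond to ATF4, a factor of amino acid stress, 9 of 13 were lower and 1 was a higher member, with a median of −0.501. Of 26 DNA replication genes, 11 were lower members and none was a higher member, with a median of −0.16, and 26 mitosis genes gave 7 lower and 6 higher members and a median of −0.02. Axon guidance genes gave 4 lower and 11 higher members among 25 with a median of 0.34, which was −0.01 with the length trend removed, and 14 immediate early genes gave 4 lower and 2 higher members with a median of 0.03. None of these 6 lists had a call by edgeR with all libraries. Unadjusted p-values under 0.05 by edgeR were found for 13, 5, 4, 5, 13 and 6 of their genes, in the order given, beside 2433 of all 11279 genes. DESeq2 called 5, 3, 0, 2, 8 and 3, beside 872 of the 11279.

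How the members divided between the lines was compared as well. CPN-/-CRY1 and CPN-/-CRY2 differed for 1428 of the 11279 genes (12.7%) in the 3-line model, for 224 of 1929 lower members, for 174 of 2043 higher members, for 17 of the 147 genes called lower and for 2 of the 53 called higher. These last 2 were Tmem47 and Ldb3. Membership asks for both lines on the same side, and the test behind the calls counts a difference between lines as spread. Both can leave out genes whose lines differ, so that these counts were partly set in advance and give no measure of how alike the lines are. The 2 lines were measured against the same CPN-/- libraries, and their log2 fold changes are therefore given side by side only: −1.62 in CPN-/-CRY1 and −1.45 in CPN-/-CRY2 for Pgk1, −1.797 in CPN-/-CRY1 and −1.25 in CPN-/-CRY2 for Ldha, −2.26 in CPN-/-CRY1 and −1.77 in CPN-/-CRY2 for Bnip3, −6.07 in CPN-/-CRY1 and −6.66 in CPN-/-CRY2 for Cxcl1, 1.61 in CPN-/-CRY1 and 1.18 in CPN-/-CRY2 for Insig1 and 0.97 in CPN-/-CRY1 and 1.03 in CPN-/-CRY2 for Inhbb. The lower members had medians of −0.47 in CPN-/-CRY1 and −0.36 in CPN-/-CRY2, and the higher members had medians of 0.48 and 0.365.

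For genes averaging 100 counts or more per library, Gm4928 was the lower member nearest to the boundary, at 17.3 and 19.2 CPM in CPN-/- cells, 15.5 and 17.3 CPM with CRY1 and 16.8 and 17.1 CPM with CRY2, and Dusp9 was just outside it, at 20.4 and 20.1 CPM in CPN-/- cells, 19.8 and 20.1 CPM with CRY1 and 9.59 and 9.67 CPM with CRY2. Among higher genes, Zfp846 was just inside, at 12.6 and 10.02 CPM in CPN-/- cells, 14.03 and 15.9 CPM with CRY1 and 12.6 and 13.6 CPM with CRY2, and Ubl4a just outside, at 66.5 and 70.6 CPM in CPN-/- cells, 71.3 and 70.6 CPM with CRY1 and 74.3 and 74.9 CPM with CRY2. With a log2 distance of at least 0.5 between the nearest libraries, a limit set after the data were seen, 314 lower and 139 higher members remained.

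Promoter sequences were compared with these sets by the share of windows that held a motif on either strand, over the 11268 RefSeq windows of 8883 tested genes outside the 4 chromosomes. The E-box CACGTG was in 9.88% of all windows, 9.54% of those of lower members, 9.77% of those of higher members, 9.46% of 148 windows of genes called lower and 16.7% of 48 windows of genes called higher. The core ACGTG, which also counts each CACGTG, was in 25.1% of all windows, 25.7% of those of genes called lower, 8 of 21 windows of the glycolytic list and 12 of 17 windows of the other HIF targets. No window of the glycolytic list held CACGTG. The NF-kB element (GGG, any 2 bases, TTTCC) was in 1.68% of all windows, 7.43% of those of genes called lower, 2.08% of those of genes called higher and 4 of 10 chemokine windows. TGACTCA, the element of AP-1, was in 3.9% of all windows and 8.11% and 6.25% of those of genes called lower and higher. TTATGTAA, the D-box, was in 0.51% of all windows, 0.67% of those of lower members and 0.19% of those of higher members. Among the 60 named genes, some had no window in the table, Cxcl5, Nos2, Ccn2 and Per2 among them. These shares are descriptions, and no test was run on them.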

How the data were processed

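RNA of 6 mouse embryonic fibroblast cultures was sequenced as mRNA libraries, 2 for each of the CPN-/-, CPN-/-CRY1 and CPN-/-CRY2 lines. The authors deposited raw read counts per gene for each library; per the submitters' processing notes the tools were STAR and featureCounts with mm10. Groups were taken from the sample titles. Libraries of a line were separate RNA preparations, so that p-values measure the spread between these preparations and lines.

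Counts were joined by NCBI Gene ID, and symbols, positions and promoters came from RefSeq tables (GRCm38.p6). The transcript length of a gene was that of its longest GENCODE transcript. One symbol of the gene lists, Rigi, was not matched. Genes were kept by filterByExpr (minimum count 10, minimum total 15), scaled by TMM and fitted in R 4.3.3 with edgeR 4.0.16 (limma 3.58.1) by a robust quasi-likelihood model with 2 groups, the 4 CRY-expressing libraries and the 2 CPN-/- libraries, and 4 residual degrees of freedom. P-values were adjusted by Benjamini-Hochberg over 14069 genes, and an adjusted p under 0.05 was called. The scripts were tested on simulated data. The CRY lines were compared in a model with 3 lines. Intervals for low counts cover counting error only.

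Named genes were the 10 protein-coding genes of each direction with the largest called change and a mean of at least 100 counts, the 5 of each direction with the highest CPM, up to 3 called members per list and direction, the knocked-out genes with Bmal1, Dbp, Hif1a, Pdk1 and Ldha, and the genes beside the boundary of the membership rule. Other genes named from the lists were chosen after their values were seen. Members and lists were chosen with earlier results of these data known. Alternatives were other scalings, filters, models and thresholds, DESeq2 1.42.0, a loess correction (span 0.5) for transcript length in every library and leaving out each library. Values of 2 list members are not reported here.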

Additional observations from a re-analysis of the deposited data

Results flagged for a closer look

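The change against CPN-/- differed between the CRY lines for 16 named genes, by edgeR's test of the CPN-/-CRY1 minus CPN-/-CRY2 difference at an adjusted p under 0.05. Among the knocked-out genes this difference was 1.84 on the log2 scale for Cry1, −2.77 for Cry2, −0.72 for Per1, −1.21 for Per2 and −0.41 for Nr1d1. For Dbp it was −1.14, for Hif1a −0.52 and for Pdk1 −1.07. Of the called genes that were lower in both lines, Bnip3 differed by −0.49, Pfkl by −0.46, Clu by −0.65, Gfra2 by −1.76 and Egln3 by 0.46, so that Egln3 was the one of these 5 with the lower level in CPN-/-CRY2. The called genes Tmem47 and Ldb3 differed by 0.96 and 0.69. Dusp9, just outside the boundary of the lower members, differed by 1.05.

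For Ccn2, 1 of the 4 CRY-expressing libraries, CPN-/-CRY1 replicate 2, lay apart from the other three, with a gap of 0.956 of the whole range of the 4. About 1 in 20 groups would be flagged in this way by chance.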

How the results depend on the processing

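Each of the 200 called genes was a member, so that the order of its libraries largely fixed its sign. None changed sign under any alternative in which it was tested. Of the 200, 11, all lower, were called under each of 16 alternatives without a fold minimum, which included the threshold of 0.01. A gene that was not tested counted there as not called. With at least 10 counts required in every library, 59 of the 200 were not tested. The genes called lower and higher numbered 903 and 693 in the 3-line model, 402 and 470 by DESeq2, and 39 and 4 at an adjusted p under 0.01. Lower genes numbered 83 with at least 10 counts in every library, and higher genes numbered 93 with the length trend removed and 31 where changes under 1 in size were left out. When each library was left out in turn, called genes ranged from 20 to 835 lower and 1 to 1151 higher, the extremes being the fits without CPN-/- replicate 2 and replicate 1, and members ranged from 1997 to 4090 lower and 2206 to 4181 higher. The rule with a distance of at least 0.5 on the log2 scale, added after seeing the data, left 314 lower and 139 higher members. With the replicate number as a block, 61 lower and 16 higher genes were called. Same-numbered libraries correlated in their deviations by −0.079, 0.141 and −0.03. The sample titles give only a replicate number, and whether same-numbered libraries share a batch was not tested. The sign turned for Cry1 (0.171 and 0.176 without CPN-/-CRY2 replicate 1 or 2, with a range of −0.438 to 0.176 over the left-out libraries), Hif1a (0.081 without CPN-/- replicate 1, range −0.303 to 0.081) and Zfp846 (−0.215 with the length trend removed), none of them called. Over the named genes, 774 values kept direction and side of the threshold, 161 lost the call and 13 gained it. The cause of these changes was not tested. The libraries of 25957409 to 36106949 counts limit genes with few counts, such as Cxcl2.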

Other observations

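Called genes outside the lists, chosen after their values were seen, included some of the largest changes. H19, an imprinted noncoding RNA, was at 13.9 and 15.2 CPM in CPN-/- cells, 0.08301 and 0.1297 CPM with CRY1 and 0.184 and 0.296 CPM with CRY2 (log2 fold change −6.41, standard error 0.34, adjusted p = 0.000535). Casp4, the inflammatory caspase that senses lipopolysaccharide in the cytosol, was at 5.38 and 6.18 CPM in CPN-/- cells, 0.08301 and 0.0649 CPM with CRY1 and 0.1102 and 0.0371 CPM with CRY2 (log2 fold change −6.205, standard error 0.31, adjusted p = 0.000429). Spp1, or osteopontin, was the most abundant of the 3 and was at 99.6 and 113 CPM in CPN-/- cells, 14.1 and 13.7 CPM with CRY1 and 19.4 and 16.8 CPM with CRY2 (log2 fold change −2.73, standard error 0.16, adjusted p = 0.000762). Each was called without any single library. The neighbouring membrane protein genes Tmem176a and Tmem176b fell by 1.45 and 1.40 on the log2 scale, and the phospholipid scramblases Plscr1 and Plscr2 by 0.92 and 2.10. Of genes used in antigen presentation by MHC class II, the invariant chain Cd74 was at 3.18 and 5.18 CPM in CPN-/- cells, 0.304 and 0.0973 CPM with CRY1 and 0.441 and 0.371 CPM with CRY2 (log2 fold change −3.78, standard error 0.46, adjusted p = 0.0132), and H2-DMb1 had a log2 fold change of −0.85 (adjusted p = 0.0249). Without CPN-/- replicate 2 the adjusted p was 0.0507 for Tmem176b, 0.074 for Plscr2 and 0.18 for Cd74. Plscr1 and H2-DMb1 were called without CPN-/- replicate 1 and in none of the other 5 fits that left out a library, where their adjusted p-values were between 0.0577 and 0.344 and between 0.0584 and 0.199.

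Among genes that rose, the noncoding RNA Lncenc1 was at 19.02 and 17.9 CPM in CPN-/- cells, 53.4 and 60.3 CPM with CRY1 and 65.8 and 58.3 CPM with CRY2 (log2 fold change 1.69, standard error 0.12, adjusted p = 0.00182) and was called without any single library. The receptor Notch1 and its ligand Jag1 were called at 1.07 (adjusted p = 0.04996) and 1.099 (adjusted p = 0.0338) on the log2 scale, and Gli1, a target of hedgehog signalling, 1.03 (adjusted p = 0.0195). Dusp6, a phosphatase that acts on ERK, was at 17.9 and 20.4 CPM in CPN-/- cells, 33.98 and 38.9 CPM with CRY1 and 34.5 and 37.9 CPM with CRY2 (log2 fold change 0.93, standard error 0.12, adjusted p = 0.0173). The serpins Serpinb6b and Serpinb9b were called at 2.07 and 0.87, beside Serpinb8 and Serpinb9. Notch1, Jag1, Gli1 and Serpinb9b were called without CPN-/- replicate 1 and in none of the other 5 fits, where their lowest adjusted p-values were 0.0965, 0.0553, 0.0511 and 0.0627. Dusp6 was not called without CPN-/- replicate 2 (0.0939) or CPN-/-CRY1 replicate 2 (0.0549), and Serpinb6b was not called without CPN-/- replicate 2 (0.153).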
